A study of Mus musculus with 18 samples.

Results

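Transcripts of 10 genes that specify or mark tendon were followed in 18 libraries of mouse tail tendon fibroblasts (TFs). They were the rows whose gene name in the count table was *Scx*, *Mkx*, *Tnmd*, *Egr1*, *Egr2*, *Tnc*, *Comp*, *Thbs1*, *Thbs2* or *Thbs4*, which is 10 of 55491 rows, and all 10 passed the filter on low counts in every comparison. Poly-A RNA was sequenced after 4 days of culture in 20% or 1% O2 from 3 arms, giving 6 groups of 3 libraries. The mice behind the Ctrl TFs carried no Cre, and the paper defines its Cre-negative controls as *Hif1a* flox/flox. Those behind the cKO TFs were *Hif1a* flox/flox;ScxCre, a genotype that the labels call *Hif1a* knockout. The third arm was Ctrl TFs given Cre gesicles, vesicles that carry the recombinase into the cells, and the labels give these libraries the wild-type genotype. All cells were grown out of tail tendon through collagen gel, passaged and plated on plastic, and came from adult mice of both sexes aged 4 to 6 months on a mixed C57BL6J and 129S1 background. The Cre of the cKO is driven by sequences of *Scx*, one of the 10 genes, is active from development onward, and is not restricted perfectly to TFs.

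Scleraxis (*Scx*) and Mohawk (*Mkx*) are transcription factors that direct cells toward the tendon fate and its collagen matrix, and the zinc finger factors *Egr1* and *Egr2* are early response genes that act on tendon collagen genes. Tenomodulin (*Tnmd*) is a membrane glycoprotein used as a marker of mature TFs. Tenascin C (*Tnc*), cartilage oligomeric matrix protein (*Comp*, the fifth thrombospondin) and the thrombospondins *Thbs1*, *Thbs2* and *Thbs4* are secreted proteins that bind matrix and cell surface receptors, and HIF-1α is the transcription factor that accumulates when oxygen is low.

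RefSeq start site sequences were at hand for 5 of the 10 genes (*Egr2*, *Tnc*, *Thbs2*, *Thbs4* and *Tnmd*). The 250 bases upstream of the first listed start are printed for *Egr2* and *Thbs2*, which were lower in 1% O2, and for *Tnc*, whose levels went with those of *Thbs1* from library to library. They are given 5′ to 3′ on the strand of the gene, from RefSeq on GRCm38.p6. The positions are chr10:67535249-67535498 on the plus strand for *Egr2*, chr17:14694263-14694512 on the minus strand for *Thbs2* and chr4:64047016-64047265 on the minus strand for *Tnc*. Capitals mark ACGTG, the core of the hypoxia response element, on either strand, TATAAA on either strand and GCGGGGGCG, 1 of 2 forms of the EGR motif that were searched (the other was GCGTGGGCG).
Egr2: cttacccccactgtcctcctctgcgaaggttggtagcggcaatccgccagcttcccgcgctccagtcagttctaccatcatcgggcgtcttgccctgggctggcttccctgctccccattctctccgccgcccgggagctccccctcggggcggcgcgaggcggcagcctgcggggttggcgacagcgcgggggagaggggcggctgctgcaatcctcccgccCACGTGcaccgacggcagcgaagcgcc
Thbs2: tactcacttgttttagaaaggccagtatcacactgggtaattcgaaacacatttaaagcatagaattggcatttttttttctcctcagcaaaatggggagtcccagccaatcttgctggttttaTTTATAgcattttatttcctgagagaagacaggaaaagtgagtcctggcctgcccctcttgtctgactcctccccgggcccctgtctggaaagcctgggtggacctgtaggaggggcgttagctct
Tnc: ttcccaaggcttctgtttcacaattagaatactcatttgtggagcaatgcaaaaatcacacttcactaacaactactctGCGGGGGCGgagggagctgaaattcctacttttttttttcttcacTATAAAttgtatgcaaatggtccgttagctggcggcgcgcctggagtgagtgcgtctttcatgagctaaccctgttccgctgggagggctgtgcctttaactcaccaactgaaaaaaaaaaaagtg

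In *Egr2*, ACGTG lay on both strands as a single palindrome about 20 bases before the start, and 16.6% of 32851 upstream windows of the same length in the genome held ACGTG. *Tnc* held the EGR match 162 bases before its start, where it overlapped a GGGCGG, and TATAAA 120 bases before it. The EGR motif was found in 3.06% of all windows and TATAAA in 12.4%. *Thbs2* held TATAAA on the opposite strand and neither ACGTG nor the EGR motif. These matches are descriptions of the sequence only, and *Egr2* has 5 listed starts and *Tnc* has 2. ACGTG was found only in the window of the first *Egr2* start, and the windows of starts 2 to 5 held none. The shares given count single windows, not genes with several starts.

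Library totals ranged from 6857558 counts in the cKO 1% O2 library of replicate 1 to 51806453. Markers of fibroblasts summed to 4075 to 13100 CPM (counts scaled to a common library size with TMM factors) in every library, while the 4 keratinocyte markers summed to 0.498 CPM at most and the 6 muscle markers to 7.46 CPM. *Hif1a* checks the labels, and its count was not lower in cKO TFs, with 348 ± 19.6 CPM in Ctrl and 377 ± 72.8 in cKO TFs in 20% O2 (mean ± SD, n = 3), and 420 ± 63 and 443 ± 54.3 in 1% O2. In gesicle-treated TFs it was 362 ± 31 in 20% and 384 ± 12.3 CPM in 1% O2. A whole gene count includes exons outside a floxed part, so it does not test the deletion by itself. Counts of the Cre sequence were found in 5 of 6 cKO libraries and 0 of 12 others, with at most 5 counts in a library.

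The 10 genes were not equally abundant. Per kilobase of exon, *Thbs1* was the highest in all 6 groups, with 2532 ± 302 CPM per kb in Ctrl TFs in 20% O2, and its libraries lay above those of the next gene, *Thbs4* (371 ± 201), in every group but cKO 20% O2. *Comp* followed with 154 ± 30.4 CPM per kb. In Ctrl TFs in 20% O2, *Thbs2* (59.6 ± 1.77) and *Tnc* (51.6 ± 12.1) overlapped in their libraries, and *Tnmd* stood below both at 30.2 ± 3.09. That order did not hold in all groups, since the mean of *Tnmd* was above those of *Thbs2* and *Tnc* in Ctrl 1% O2 (45.3, 43.5 and 28.6 CPM per kb) and cKO 1% O2 (88.3, 38.1 and 16.5), with libraries of *Tnmd* and *Thbs2* that overlap. The transcription factors had the lowest levels in Ctrl 20% O2, with *Egr1* at 13.2 ± 5.34, *Scx* at 7.41 ± 2.55, *Mkx* at 7.28 ± 5.71 and *Egr2* at 2.13 ± 0.760 CPM per kb. There *Egr1*, *Scx* and *Mkx* could not be ordered beyond the spread of their libraries, and in cKO 1% O2 *Egr1* (21.5 ± 3.32) overlapped *Tnc* (16.5 ± 7.94). *Egr2* was the lowest in each of the 6 groups and rested on 49 to 525 counts per library.

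**Figure D1:**
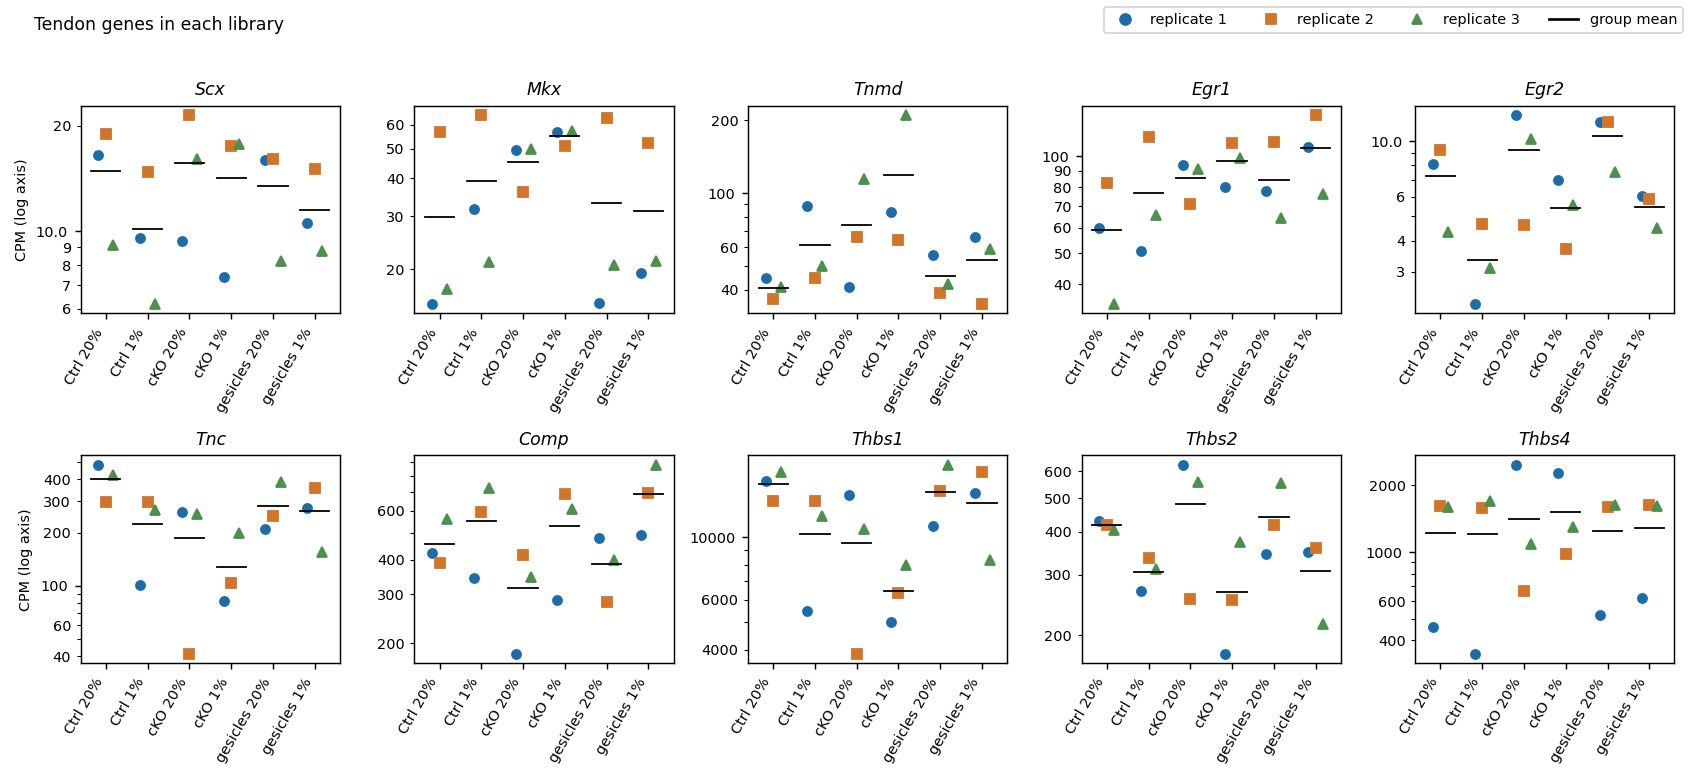
CPM of each of the 10 genes (log axis) in the 6 groups, with 1 point per library, shaped and coloured by replicate number, and a bar for the group mean. The *Thbs4* points of replicate 1 lie lowest in the 4 Ctrl and gesicle groups and highest in the 2 cKO groups, and every *Egr2* point in 1% O2 lies below the point of the same number in 20% O2.

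The first question was how the genes responded to oxygen. *Egr2* fell in 1% O2 when the 3 arms were averaged, to 0.518 of its level in 20% O2, and its direction was the same in 9 of 9 pairs of libraries with the same arm and number, as for 6.55% of all genes. *Thbs2* was lower in 8 of 9 pairs and *Comp* higher in 8 of 9. So was *Mkx*, whose log2 fold change averaged over the arms was only 0.19 ± 0.33 (SE). For 8 of 9 pairs or fewer, the share of all genes was not computed. In cKO and gesicle-treated TFs the pairs are matched by number only, since same-numbered libraries did not all deviate together over genes there. Within a single arm, none of the 10 genes passed the test. A gene was called at a Benjamini-Hochberg adjusted p under 0.05 (edgeR quasi-likelihood test) and a fold change of at least 1.5. With that rule, 1.88% of all genes tested were called for 1% against 20% O2 in Ctrl TFs, 2.1% in cKO TFs and 2.41% in gesicle-treated TFs, against 0 of 10 here in each. These shares depend on the tool, as DESeq2 called 696, 892 and 732 genes where edgeR called 298, 333 and 390. At an unadjusted p under 0.05 with the same fold change, 1 gene passed in Ctrl (*Egr2*), 1 in cKO (*Thbs2*) and 2 in gesicle-treated TFs (*Egr2* and *Comp*), where 9.44%, 11.6% and 9.41% of all genes did. The median log2 fold change of the 10 was -0.23, 0.01 and -0.09 in the 3 arms, beside 0.00, -0.03 and -0.02 for all genes.

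*Egr2* in Ctrl TFs was 8.12, 9.24 and 4.32 CPM in 20% O2 and 2.24, 4.68 and 3.11 CPM in 1% O2 (replicates 1, 2 and 3). In cKO TFs it was 12.7, 4.63 and 10.2 CPM in 20% O2 and 6.97, 3.71 and 5.55 CPM in 1% O2. In gesicle-treated TFs the values were 11.96, 11.88 and 7.56 CPM in 20% O2 and 6.01, 5.89 and 4.48 CPM in 1% O2. The groups overlapped in Ctrl and cKO TFs, and the highest library in 1% O2 lay below the lowest in 20% O2 in gesicle-treated TFs, as for 11% of all genes. The log2 fold change was -1.11 ± 0.41 (SE, adjusted p = 0.211) in Ctrl, -0.78 ± 0.41 (adjusted p = 0.318) in cKO and -0.94 ± 0.37 (adjusted p = 0.203) in gesicle-treated TFs. In bulk RNA, fewer cells of a type and less RNA per cell cannot be told apart.

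*Comp* in Ctrl TFs was 423, 388 and 559 CPM in 20% O2 and 343, 594 and 723 CPM in 1% O2. The groups overlapped, and replicate 1 was the only one of the 9 pairs that was lower in 1% O2. In cKO TFs *Comp* was 184, 416 and 347 CPM in 20% O2 and 288, 690 and 608 CPM in 1% O2. In gesicle-treated TFs it was 479, 282 and 400 CPM in 20% O2 and 490, 696 and 878 CPM in 1% O2, which do not overlap, with all 3 higher as for 13% of all genes. The log2 fold change was 0.28 ± 0.36 in Ctrl (adjusted p = 0.764), 0.75 ± 0.37 in cKO (adjusted p = 0.281) and 0.83 ± 0.36 in gesicle-treated TFs (adjusted p = 0.245).

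*Thbs2*, a thrombospondin that shapes collagen fibrils, was 429, 419 and 404 CPM in Ctrl TFs in 20% O2 and 269, 335 and 311 CPM in 1% O2. All 3 libraries in 1% O2 lay below all 3 in 20% O2, as they did for 13.4% of all genes in this comparison. In cKO TFs *Thbs2* was 626, 255 and 559 CPM in 20% O2 and 177, 252 and 372 CPM in 1% O2, and the low replicate 2 in 20% O2 made the groups overlap. In gesicle-treated TFs it was 345, 419 and 556 CPM in 20% O2 and 349, 358 and 215 CPM in 1% O2. The log2 fold change was -0.45 ± 0.30 in Ctrl (adjusted p = 0.515), -0.83 ± 0.30 in cKO (adjusted p = 0.162) and -0.52 ± 0.31 in gesicle-treated TFs (adjusted p = 0.407). Without the cKO 20% O2 library of replicate 2, *Thbs2* was called in cKO TFs (-1.12, adjusted p = 0.0165).

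A contrast of 1% with 20% O2 averaged over the 3 arms in the fit of 18 libraries was added after these directions were seen, so it is not independent of them, and Ctrl and gesicle-treated libraries of 1 number deviated together, so the 9 pairs are not independent of each other. It called 3 of the 10 genes, 1 higher and 2 lower, where 10.5% of all genes were called, 5.36% higher and 5.13% lower. *Egr2* was lower (log2 fold change -0.95 ± 0.22, adjusted p = 0.00567), as was *Thbs2* (-0.60 ± 0.18, adjusted p = 0.0207), and *Comp* was higher (0.62 ± 0.21, adjusted p = 0.0401). *Egr2* kept its call in all 18 fits that each lacked 1 library, with values from -1.07 to -0.85. The other two were close to the limits of fold and p. *Comp* was called without 6 of the 18 libraries in turn and *Thbs2* without 13. With a replicate block in edgeR that ties libraries of 1 number across the arms, *Comp* had a log2 fold change of 0.56, under the minimum (adjusted p = 0.0301). Ctrl and cKO libraries of 1 number were of opposite sex, so that block ties cells of different mice. With a block within each arm instead, *Comp* kept its call. The other 7 genes were not called, and *Tnmd* had the next largest difference (0.50 ± 0.24, adjusted p = 0.145).

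**Figure D2:**
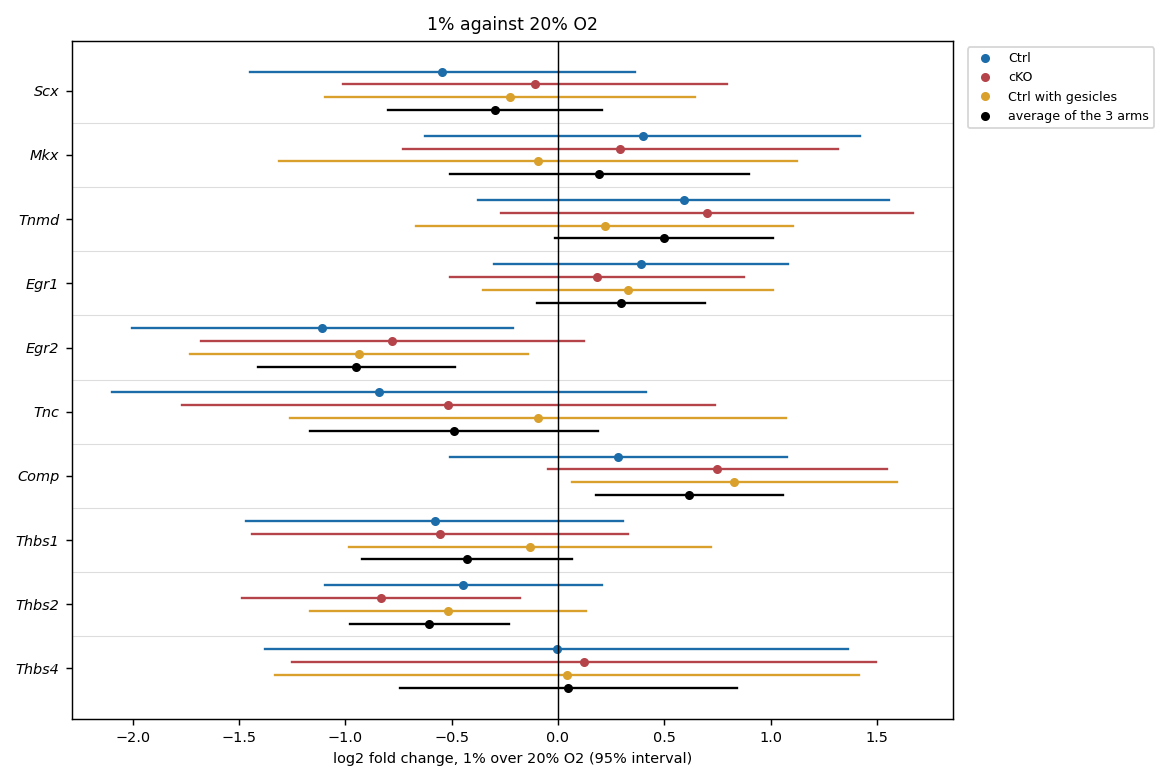
Log2 fold change of 1% over 20% O2 for the 10 genes, with 95% intervals, in Ctrl, cKO and gesicle-treated Ctrl TFs and for the average of the 3 arms. The intervals of the average exclude 0 for *Egr2*, *Comp* and *Thbs2*.

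*Scx* had lower values in 1% O2 in all 3 Ctrl pairs (16.5, 19.0 and 9.13 CPM in 20% O2 and 9.55, 14.7 and 6.195 CPM in 1% O2), but the groups overlapped (log2 fold change -0.54 ± 0.42, adjusted p = 0.574). The change was -0.11 ± 0.42 in cKO and -0.23 ± 0.41 in gesicle-treated TFs. *Mkx* had higher values in 1% O2 in 8 of 9 pairs and *Tnmd* and *Egr1* in 7 of 9, with averages over the arms of 0.19 ± 0.33, 0.50 ± 0.24 and 0.30 ± 0.19. In cKO TFs the 3 *Mkx* libraries in 1% O2 (56.8, 51.1 and 57.5 CPM) all lay above those in 20% O2 (49.5, 36.2 and 50.03 CPM), as did 10.5% of all genes. *Thbs1* was the other gene whose Ctrl libraries did not overlap, with all 3 lower in 1% O2, as for 13.4% of all genes. The gap was narrow, since replicate 2 had 13369 CPM in 20% O2 and 13355 CPM in 1% O2. Its log2 fold change in Ctrl TFs was -0.58 ± 0.41 (adjusted p = 0.539). *Thbs1* was lower in 6 of 9 pairs in all, and *Tnc* in 5 of 9. *Thbs4* had 4 lower and 5 higher pairs, and its 95% interval for the average, from -0.75 to 0.84, leaves room for changes of more than 1.5-fold either way. The *Egr1* and *Egr2* values thus lay on opposite sides of 0 in each of the 3 arms.

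Other genes that feed or surround this program were taken from hand-written lists. Averaged over the arms, where 10.5% of all genes were called, 5 of 26 immediate early genes tested were called, 1 higher and 4 lower. Those with the largest change were *Nr4a3* (-1.73 ± 0.42), *Nr4a1* (-1.37 ± 0.11) and *Egr3* (-1.22 ± 0.30), of which *Nr4a1*, an orphan nuclear receptor, was also called in each arm alone. *Nr4a3* was at most 1.16 CPM in the Ctrl libraries. Of 23 tenogenic inputs tested, 2 were higher and 2 lower. *Fgf18*, a growth factor, was at 14.9 ± 6.91 CPM in 20% and 25.7 ± 13.03 CPM in 1% O2 in Ctrl TFs (average log2 fold change 1.32 ± 0.27). *Gdf6*, a bone morphogenetic protein family ligand, was lower (-1.34 ± 0.37), and *Gdf5* was higher (1.32 ± 0.40) at levels under 1.2 CPM. Of 27 tendon matrix genes, 4 were higher, led by *Aspn* (1.05 ± 0.17), *Htra1* (0.91 ± 0.19) and *Cilp* (0.90 ± 0.26), and 3 were lower. Of 25 matricellular proteins and receptors, 3 were higher and 4 lower. The largest, *Tnn* (3.34 ± 1.00), the tenascin W gene, had groups with libraries at 0 counts, *Itga3* fell by 0.79 and *Ccn3* by 0.78 on the log2 scale. The medians of these 4 lists, from -0.07 to 0.01, lay close to -0.02 for all genes. The 6 sheath markers summed to 1486 to 1944 CPM in Ctrl 20% O2 and 2653 to 2741 CPM in 1% O2, with 1 higher and 1 lower in the average over arms and none at 0. In the other arms they summed to 2031 to 3484 and 2698 to 3677 CPM (cKO) and to 2006 to 2017 and 2604 to 3110 CPM (gesicle-treated). The 7 mural markers summed to 101 to 177 CPM in Ctrl 20% and 48.8 to 98.2 CPM in 1% O2, which do not overlap. Of all single genes, 13.4% lay lower without overlap in this comparison, and 0 of the 7 markers were called in Ctrl TFs alone. The sums were 38.6 to 58.2 and 34 to 51.83 CPM in cKO and 61.3 to 139 and 58.9 to 93.4 CPM in gesicle-treated TFs, which overlap. Of the 7, 1 was called higher and 1 lower in the average and none was at 0. Of the 6 endothelial markers 1 passed the filter, *Tek*, and it was called lower in the average (-0.94 ± 0.23). The part of these lists in the results was not tested.

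The second question was whether the genes differed between cKO and Ctrl TFs. *Tnmd* had a higher mean in cKO TFs at both O2 levels, and *Tnc* and *Thbs1* had lower ones, but none of the 10 passed the adjusted test. Sex was not balanced between the genotypes. By *Xist* and Y-linked counts, each Ctrl group held 1 male and 2 female libraries and each cKO group 2 male and 1 female. Of all genes, 0.347% were called in 20% O2, 0.0379% in 1% O2 and 3.78% when both levels were averaged. These counts rested on single libraries. With 1 library left out, the 55 genes called in 20% O2 became 1 (without Ctrl replicate 1 or cKO replicate 3) to 154 (without cKO replicate 1), the 6 in 1% O2 became 0 to 6, and the 599 of the average became 137 (without Ctrl 20% O2 replicate 1) to 1531 (without cKO 20% O2 replicate 1). With all libraries, DESeq2 called 443 genes in 20% O2, 302 in 1% O2 and 1213 in the average, so the shares also depend on the tool. The average also counts the 20% and 1% O2 libraries of 1 number as separate samples. With those summed, leaving 3 samples a genotype, it called 25 genes (0.15%) and none of the 10. At an unadjusted p under 0.05, the averaged comparison passed 3 of the 10 (*Tnmd*, *Tnc* and *Thbs1*), beside 11.2% of all genes. The Ctrl libraries here are the same ones that enter the oxygen and gesicle comparisons.

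*Tnmd* was 44.9, 36.6 and 41.2 CPM in Ctrl and 41.1, 65.9 and 115 CPM in cKO TFs in 20% O2. In 1% O2 it was 88.7, 44.8 and 50.3 CPM in Ctrl and 83.9, 64.2 and 210 CPM in cKO TFs. The groups overlapped at both levels, and replicate 3 of the cKO held the highest value of each. The log2 fold change was 0.85 ± 0.45 in 20% O2 (adjusted p = 0.386), 0.96 ± 0.45 in 1% O2 (adjusted p = 0.299) and 0.91 ± 0.32 when averaged (adjusted p = 0.0941). The averaged value was called by DESeq2 (0.90, adjusted p = 0.0262), by edgeR without a filter on low counts (0.90, adjusted p = 0.0229) and without the cKO 20% O2 library of replicate 1 (1.05, adjusted p = 0.038). It was not called with libraries of 1 number summed (0.83, adjusted p = 0.392 from edgeR), with the replicate block in edgeR (0.79, adjusted p = 0.131) or with *Xist* as a covariate (0.62, adjusted p = 0.197). Ctrl and cKO libraries of 1 number were of opposite sex, so the block here ties cells of different mice and is not a pairing. *Tnmd* lies on the X chromosome, and within each genotype the libraries without *Xist* had the higher mean.

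*Tnc* was 482, 298 and 422 CPM in Ctrl and 260, 41.5 and 255 CPM in cKO TFs in 20% O2. All 3 cKO libraries lay below all 3 Ctrl libraries, as for 10.3% of all genes. In 1% O2 it was 101, 298 and 269 CPM in Ctrl and 82.4, 104 and 199 CPM in cKO TFs, which overlap. The averaged log2 fold change was -0.96 ± 0.41 (adjusted p = 0.151). *Thbs1* was 15812, 13369 and 16955 CPM in Ctrl and 14087, 3883 and 10651 CPM in cKO TFs in 20% O2, and 5509, 13355 and 11890 CPM in Ctrl and 5020, 6335 and 7981 CPM in cKO TFs in 1% O2. Its averaged change was -0.68 ± 0.29 (adjusted p = 0.145), and the groups overlapped at both levels.

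*Mkx* in the cKO lay between 36.2 and 57.5 CPM in all 6 libraries, while the 6 Ctrl libraries ran from 15.4 to 64.6 CPM (averaged change 0.54 ± 0.33, adjusted p = 0.294). *Scx* did not separate the genotypes (0.29 ± 0.29, adjusted p = 0.527), nor did *Egr1* (0.42 ± 0.22, adjusted p = 0.231) or *Egr2* (0.50 ± 0.29, adjusted p = 0.27). *Comp* changed by -0.30 ± 0.26 and *Thbs2* by 0.00 ± 0.21 (95% interval -0.46 to 0.46). *Thbs4* changed by 0.26 ± 0.45, and with *Xist* as a covariate by 0.93 (adjusted p = 0.0348 from edgeR). That fit counts the 20% and 1% O2 libraries of 1 number as separate samples, and the levels of *Thbs4* themselves went with *Xist* (below). With libraries of 1 number summed and no covariate, *Thbs4* changed by 0.27 (adjusted p = 0.828 from edgeR). An edgeR test of the interaction of genotype and O2 called none of the 10 genes and 0% of 15850 genes, with 1.84% of genes but none of the 10 at an unadjusted p under 0.05 and the fold minimum. DESeq2 called 2 genes, 4 with the replicate block, and edgeR 1 without the cKO 20% O2 library of replicate 1, none of them among the 10. The intervals were wide, from -1.81 to 2.07 for *Thbs4*, so differences in the oxygen response of the 10 genes were not excluded.

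**Figure D3:**
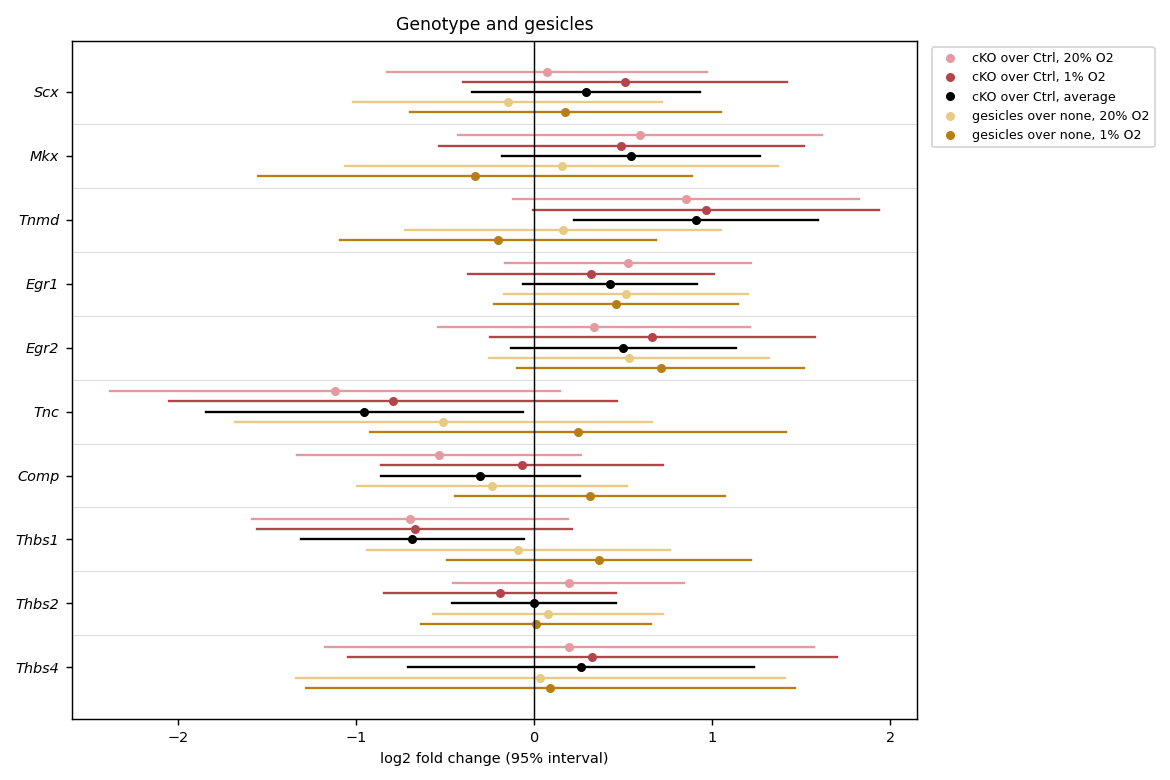
Log2 fold change of the 10 genes with 95% intervals, for cKO over Ctrl TFs in 20% O2, in 1% O2 and averaged, and for gesicle-treated over untreated Ctrl TFs in 20% and 1% O2. For *Tnmd*, *Tnc* and *Thbs1* the interval of the averaged genotype difference excludes 0, and all gesicle intervals include 0.

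In the lists, averaged over O2 (3.78% of all genes called, and 0.15% with libraries of 1 number summed), cKO TFs were higher in 3 of 26 tendon matrix genes tested and lower in 1. *Lum* (3.47 ± 0.39) and *Dcn* (2.27 ± 0.21) encode small leucine-rich proteoglycans that bind collagen fibrils, and *Col12a1* (-1.21 ± 0.24) a fibril-associated collagen. Of the tenogenic inputs, 1 of 23 was called, the growth factor *Fgf2* (-1.18 ± 0.27), and of the immediate early genes 2 of 26, *Fosl2* (-1.05 ± 0.23) and *Nr4a1* (-0.84 ± 0.15). Of 25 matricellular proteins and receptors, *Ccn3* was higher (1.11 ± 0.24) and the integrin subunit *Itga5* (-0.92 ± 0.17) and *Atf6* (-0.72 ± 0.17) were lower. Markers of other cells moved with genotype too. The 7 mural markers summed to 101 to 177 CPM in Ctrl and 38.6 to 58.2 CPM in cKO TFs in 20% O2, and to 48.8 to 98.2 and 34 to 51.83 CPM in 1% O2, with 3 of 7 called lower in the average and none at 0. Of the 6 sheath markers 2 were called higher in the average, with none at 0, and their sum was 1486 to 1944 CPM in Ctrl and 2031 to 3484 CPM in cKO TFs in 20% O2, and 2653 to 2741 and 2698 to 3677 CPM in 1% O2. The 7 fibroblast markers summed to 9983 to 12920 CPM in Ctrl and 6187 to 8865 CPM in cKO TFs in 20% O2, and to 6182 to 11860 and 4075 to 8067 CPM in 1% O2. Most of the sum in 20% O2 was *Col1a1* and *Col1a2*, with means of 6336 and 2923 CPM in Ctrl and 2868 and 2302 CPM in cKO TFs. Singly, 5 of the 7 had positive log2 fold changes in 20% O2 (median 0.31). In the average 3 of 7 were called higher (*Fap*, *Dcn* and *Lum*) and 0 lower. The part of these markers in the differences of *Tnmd*, *Tnc* and *Thbs1* was not tested.

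The third comparison set gesicle-treated beside untreated Ctrl TFs. None of the 10 genes was called at either O2 level, where 0.0247% of all genes were called in 20% O2 and 0% in 1% O2. In this fit without a block, none reached an unadjusted p under 0.05 with the fold minimum, as 2.41% and 1.45% of all genes did. DESeq2 called 46 genes in 20% O2 where edgeR called 4, and 62 with the replicate block, none of them among the 10. In 1% O2, DESeq2 also called 0 genes, and 3 with the replicate block. The largest member differences were *Egr2* in 1% O2 (0.71 ± 0.38, unadjusted p = 0.0809 from edgeR) and *Egr2* and *Egr1* in 20% O2 (0.53 ± 0.37 and 0.51 ± 0.32). *Egr1* was 59.6, 82.6 and 34.8 CPM without and 77.9, 110 and 64.4 CPM with gesicles in 20% O2, and 50.8, 115 and 65.6 CPM without and 107, 134 and 76.4 CPM with gesicles in 1% O2. Each gesicle library thus had a higher *Egr1* value than the untreated library of the same number, in groups that overlap. The same held for *Egr2*, whose values are given above, so both genes were higher in 6 of 6 pairs, as were 3.34% of all genes, and none of the other 8 genes was higher or lower in all 6. Neither was called with the replicate block, and in the paired fits of only the groups compared the adjusted p from edgeR was 0.183 for *Egr1* and 0.198 for *Egr2* in 20% O2 and 0.999 for each in 1% O2. For the 2 largest differences of the genotype comparison, *Tnmd* had gesicle values of 0.16 ± 0.42 and -0.20 ± 0.42 and *Tnc* of -0.51 ± 0.55 and 0.24 ± 0.55 in 20% and 1% O2. No gene of the 4 lists was called at either level. An interaction of gesicles and O2, also added after the data were seen, called 0 of the 10 genes and 0% of 16174 genes. At an unadjusted p under 0.05 with the fold minimum, 1.24% of all genes passed but none of the 10.

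Several of the genes differed between replicates more than between conditions. In the 12 Ctrl and gesicle-treated libraries, replicates 1, 2 and 3 differed in *Thbs4*, *Mkx*, *Scx* and *Egr1*. A test of the number across these libraries, with the 4 conditions in the model, was added after this was seen. It called 4 of the 10 genes, where 3.68% of 15615 genes were called. *Thbs4* differed 3.45-fold between the highest and lowest number (adjusted p = 4.03e-04), *Mkx* 3.00-fold (adjusted p = 0.00136), *Scx* 2.01-fold (adjusted p = 0.00898) and *Egr1* 1.86-fold (adjusted p = 0.0263). Replicate number took 95.8% of the sum of squares of log2 *Thbs4*, 88.6% of *Mkx* and 73.2% of *Scx*, with a median of 19% over all genes. For *Egr2* it took 15.2% and the conditions 73.3%, and for *Thbs2* 3.92% and 52.7%. In these 12 libraries replicate 1 was male and replicates 2 and 3 female in all 4 conditions, so the cells of replicate 1 came from another mouse than those of the other two. The labels do not say whether replicates 2 and 3 were separate mice or what else a number marks.

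**Figure D4:**
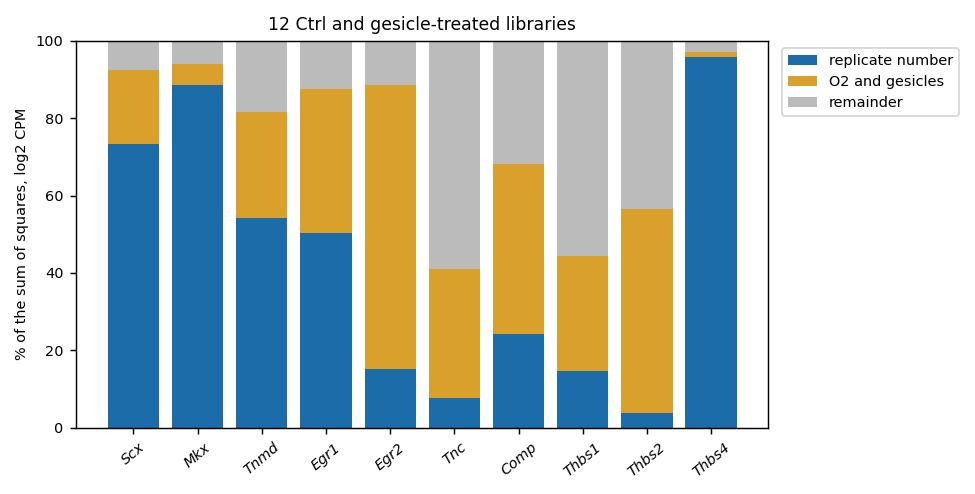
Share of the sum of squares of log2 CPM that went with the replicate number, with the 4 conditions (O2 and gesicles) and with the remainder, for each gene in the 12 Ctrl and gesicle-treated libraries. The number takes over 50% for *Scx*, *Mkx*, *Tnmd*, *Egr1* and *Thbs4*, and the conditions take the largest share for *Egr2*, *Comp* and *Thbs2*.

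*Mkx* in replicate 2 was 56.8, 64.6, 63.4 and 52.5 CPM in Ctrl 20%, Ctrl 1%, gesicle 20% and gesicle 1% O2. In replicate 1 it was 15.4, 31.7, 15.5 and 19.5 CPM and in replicate 3 it was 17.3, 21.1, 20.7 and 21.3 CPM, so replicate 2 stood above the others in all 4 conditions. *Scx* was 19.0, 14.7, 16.0 and 15.1 CPM in replicate 2 and 9.13, 6.195, 8.21 and 8.76 CPM in replicate 3, the lowest in each condition. *Egr1* was likewise highest in replicate 2 in all 4. Without replicate 1, the difference between replicates 2 and 3 was called for *Mkx*, *Scx* and *Egr1* (2.5% of all genes) and not for *Thbs4* (adjusted p = 0.918).

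*Thbs4*, a thrombospondin of tendon and muscle matrix, instead set replicate 1 apart. Its values in replicate 1 were 457, 348, 520 and 621 CPM in the same order of conditions, against 1609, 1584, 1599 and 1629 CPM in replicate 2 and 1596, 1702, 1631 and 1616 CPM in replicate 3. In cKO TFs replicate 1 was the highest, with 2476 CPM in 20% and 2283 CPM in 1% O2, against 664 and 983 CPM in replicate 2 and 1090 and 1298 CPM in replicate 3. This pattern went with *Xist*, the RNA of the inactive X chromosome of female cells, which was detected in replicates 2 and 3 of the Ctrl and gesicle-treated libraries and in replicate 1 of the cKO. *Thbs4* was 1584 to 2476 CPM (median 1622) in the 10 libraries with *Xist* and 348 to 1298 CPM (median 643) in the 8 without it, which do not overlap. It was the only one of the 10 genes for which that held, and 0.0927% of 16174 genes did not overlap between these libraries. This split was noticed in the data, and its libraries are not independent of each other. Over means of log2 CPM for each genotype and number, 3 with and 3 without *Xist*, *Thbs4* was 1.26 higher with *Xist* and *Tnmd* 0.84 lower (log2 difference -0.84). Each had p = 0.1 in a two-sided exact permutation test, the smallest p that 3 against 3 allows. This p cannot test the split, which was chosen after the values were seen. The share of all genes that reach it was not computed. The split also goes partly with genotype, since *Xist* was found in replicates 2 and 3 of Ctrl but only in replicate 1 of the cKO. Libraries of *Tnmd* overlapped, with 34.97 to 83.9 CPM (median 41.8) with *Xist* and 44.9 to 210 CPM (median 65.8) without.

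*Thbs1*, *Tnc* and *Thbs2* shared their low libraries. In each of the 6 groups the library with the lowest *Thbs1* also had the lowest *Tnc*, and in 5 of 6 it had the lowest *Thbs2*. Of 16173 other genes, 3.72% shared all 6 and 12.5% shared 5 or more. The clearest case was cKO 20% O2 replicate 2, with 3883 CPM of *Thbs1*, 41.5 of *Tnc* and 255 of *Thbs2*, beside 10651, 255 and 559 CPM in the next lowest library. Replicate 1 was the low one in Ctrl 1% O2 (5509 and 101 CPM of *Thbs1* and *Tnc*) and replicate 3 in gesicle 1% O2 (8310 and 155 CPM). The low library thus did not have the same number in all groups. *Thbs4* shared the lowest library with *Thbs1* in 3 of 6 groups, *Comp* in 3, *Egr1* in 4 and *Tnmd* in 1.

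**Figure D5:**
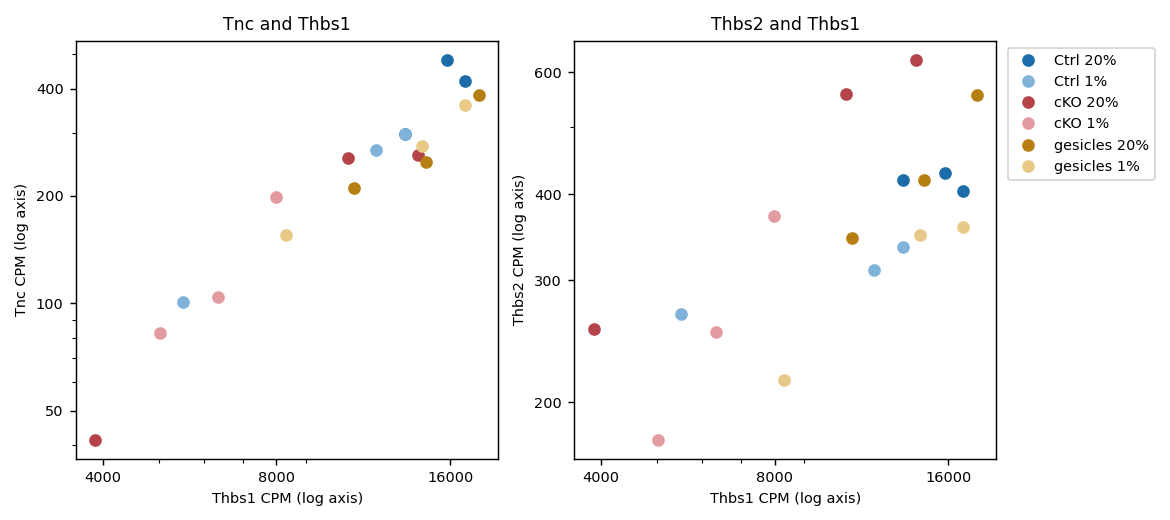
CPM of *Tnc* (left) and *Thbs2* (right) against CPM of *Thbs1* in each of the 18 libraries (log axes), coloured by group. The cKO 20% O2 library with 3883 CPM of *Thbs1* has the lowest *Tnc* value of all, 41.5 CPM.

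The genes whose pattern over the 18 libraries was most like that of *Scx*, *Mkx* and *Tnmd* were found by the root mean square difference of centred log2 CPM among 12824 genes. For *Scx* these were *Popdc3* (0.31), *Socs2* (0.31) and *Ptgis* (0.33), where the median gene differed by 0.60. For *Mkx* they were *Enpp1* (0.33), *Dio3* (0.42) and *Fbln1* (0.42), with a median of 0.81. For *Tnmd* they were *Rps4l* (0.38), *Hnmt* (0.39) and *4930563E22Rik* (0.42), with a median of 0.70. In annotation of GRCm38 (GENCODE), exons of *Tnc* and *Thbs1* overlap genes on the other strand over 2.26% and 3.42% of their exon bases and *Mkx* a sense gene over 4.91%, and *Scx* lies within *Bop1* on the other strand and shares no exon bases with it. Whether counting used strand was not given in the sources used here.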

How the data were processed

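The authors trimmed paired-end reads with cutadapt, aligned them to GRCm38 (Ensembl) with STAR, and took estimated counts for each gene from RSEM 1.3.3. They deposited the estimated counts as whole numbers without normalization, for 55491 rows including 4 transgene sequences. Expected counts were tested as whole numbers. No pair of libraries was a copy (smallest chi-square per degree of freedom 15.4).

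Groups and replicate numbers followed the labels, which give 10% serum where the paper gives 1%. edgeR 4.0.16 (R 4.3.3) was used with TMM, filterByExpr, 1 coefficient per group and the quasi-likelihood F test, fitting the 12 libraries of Ctrl and cKO together (15850 genes) and, for gesicles, all 18 (16174 genes). Genes were called at a Benjamini-Hochberg adjusted p under 0.05, over all genes tested, and a change of 1.5-fold or more. For standard errors, the log2 fold change was divided by the root of F, and intervals use the t distribution of the fit. Levels are CPM with TMM factors of the 18 libraries. Every group held libraries of both sexes by *Xist* and Y-linked counts, so it came from at least 2 mice, and the methods speak of 3 mice. No label ties a library to a mouse, and p-values measure the spread between these libraries. A floor of 3 counts, set by choice for counting error only, was 0.0579 to 0.4375 CPM over the libraries. Fewer counts give lower CPM values.

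Same-numbered libraries deviated together over genes in Ctrl 20% and 1% O2 (r of 0.372, 0.419 and 0.654 across genes, which are not independent replicates), in Ctrl and gesicle-treated TFs in 20% O2 (0.448, 0.609 and 0.499) and in 1% O2 (0.303, 0.176 and 0.383). They were therefore taken to pair the libraries there, from the data and not from the labels. The values printed come from the fit without a block, and the block is an alternative. For the other comparisons of 2 groups at least 1 of the 3 values was under 0.1. Ctrl and cKO libraries of the same number were of opposite sex for each number, so a block over both genotypes does not pair mice. The replicate block changed none of the calls of the paired comparisons of 2 groups.

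Alternatives were DESeq2 1.42.0 with and without the block, RLE factors, no filter, a filter that kept genes over 1 CPM in 3 or more libraries, other sets of libraries in the fit, the block in edgeR, unadjusted p, no fold minimum, *Xist* as a covariate, libraries of 1 genotype and number summed, and each library left out. A block within each arm was also run for the O2 comparisons. Tools were tested on simulated data. The 10 genes and all lists were chosen with earlier results of these data known. The genes named are the 10, *Hif1a*, for each list and comparison at most 3 called genes with the largest change, and the 3 nearest patterns of *Scx*, *Mkx* and *Tnmd*. *Xist*, *Bop1*, *Tek*, *Col1a1*, *Col1a2* and the marker genes called were named after their values or positions were seen. Figures were drawn with matplotlib 3.10.9.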

Additional observations from a re-analysis of the deposited data

How the results depend on the processing

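Of 221 alternative counts of called genes among the 10, 206 stayed within 1.5 times the main count. Most of the 206 were 0 in both, as only O2 averaged over the arms called any of the 10 in the main fit. There a fall from 3 to 2 stays within the limit, so this total does not measure stability. With unadjusted p the count was 1 for O2 in Ctrl, 1 for O2 in cKO, 2 for O2 in gesicle-treated and 3 for averaged cKO against Ctrl TFs. DESeq2 with the replicate block gave 1 for O2 in cKO (*Comp*, log2 fold change 0.74, adjusted p = 0.0409) and 1 for averaged cKO against Ctrl (*Tnmd*, 0.79, adjusted p = 0.0389). That block ties Ctrl and cKO libraries of opposite sex, which are not pairs. With libraries of 1 number summed, *Tnmd* was not called (0.83, adjusted p = 0.392 from edgeR) and the genes called in all fell from 599 to 25. That averaged comparison also gave 1 with DESeq2, 1 without the filter on low counts (both *Tnmd*) and 1 with *Xist* as a covariate (*Thbs4*). With each library left out in turn, counts ran from 0 to 1 for O2 in cKO, from 0 to 1 for averaged cKO against Ctrl TFs, and from 1 to 3 for O2 averaged over the arms. In that last comparison only *Egr2* was called without cKO 20% O2 replicate 1 or 3, gesicle 20% O2 replicate 3 or gesicle 1% O2 replicate 3. Over all genes, the 298, 333 and 390 called for O2 in Ctrl, cKO and gesicle-treated TFs became 116 to 261, 98 to 1373 (the highest without cKO 20% O2 replicate 2) and 148 to 346 with 1 library left out. The cause was not tested. No called value changed sign, and 119 of 2210 values of single genes did, in results whose main log2 fold change was at most 0.49 in size. The replicate block in edgeR changed the call of *Comp* in O2 averaged over the arms (0.56, adjusted p = 0.0301) and no other. A block within each arm left that call in place. A fit of only the groups compared was not run for averages and interactions. Depth limits *Egr2* most, with 49 counts in its shallowest library.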
